A study of Mus musculus with 5 samples.

Results

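MMSAT4, SYNREP_MM, MurSAT1, ZP3AR and IMPB_01 are 5 of the 13 mouse satellite families for which γH2AX ChIP-seq reads were counted. They were taken by name and, with GSAT_MM and SATMIN, the major satellite of the pericentromere and the minor satellite of the centromere, make up all families with more than 3 counts in any library. The remaining 6 had at most 2 counts in any library. The cells were primary mouse embryonic fibroblasts, proliferating at passage 4, that differed at the Rb gene. Rb+/+ cells had 2 normal alleles, RbΔL/+ cells 1 normal and 1 ΔL allele, RbΔL/ΔL cells 2 ΔL alleles, and Rb-/- cells no functional allele. Each genotype gave 1 library precipitated with the same antibody lot against γH2AX, and 1 input library without antibody, whose genotype the labels do not give, was the common control. How many embryos each library came from is not given in the sources used here.

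γH2AX is the histone variant H2AX phosphorylated around DNA breaks and stalled replication forks. The retinoblastoma protein, encoded by Rb, holds back E2F transcription factors, and its cleft for proteins with an LXCXE motif, altered by ΔL, also serves to bring chromatin regulators to DNA. The title of the series links a complex of RB, E2F1 and condensin II, a protein machine that compacts chromosomes, to replication stress. Satellites are tandem arrays of a repeated unit, and such arrays are known as places where replication forks can stall. The counts of these families show how much of each library came from satellites other than the 2 large centromeric ones.

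The libraries held 13731924 (RbΔL/+) to 17896985 (Rb+/+) counts over all repeat classes and the unique genome. GSAT_MM took 91.6% to 94.3% of the satellite counts, so a second scale is given, the share of the satellite counts without GSAT_MM. Values given below as without GSAT_MM are on this scale, which also leaves out the unique genome and every other repeat class. Its denominator was 40812 counts in Rb+/+, 43231 in Rb-/-, 32058 in RbΔL/ΔL, 30408 in RbΔL/+ and 38733 in the input. No test between genotypes could be run, as each has a single library. The 95% intervals below cover counting error only, and the difference between 2 cultures of 1 genotype is unknown. Since the input is a single library, a different number of repeat copies in the DNA of a genotype and a different level of γH2AX on them cannot be told apart. In the files the families have names and counts but no positions, so whether they lie outside centromeres was not checked, and SYNREP_MM, with 18789 to 29026 counts, was more abundant than SATMIN in every library.

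SYNREP_MM made up most of the counts of these families and was highest in Rb-/- and lowest in RbΔL/ΔL. When each library was scaled to a median repeat class ratio of 1 to the input, RbΔL/ΔL was within counting error of RbΔL/+, at 1.01 times (0.989 to 1.03). SYNREP_MM had 27395 counts in Rb+/+, 29026 in Rb-/-, 19542 in RbΔL/ΔL, 18789 in RbΔL/+ and 25142 in the input. In CPM, counts divided by the library total and multiplied by 1000000, this was 1531 in Rb+/+ (1513 to 1549), 1738 in Rb-/- (1718 to 1758), 1217 in RbΔL/ΔL (1200 to 1234), 1368 in RbΔL/+ (1349 to 1388) and 1463 in the input (1445 to 1482). None of these intervals overlapped another, and the libraries with a ΔL allele lay below the input while the Rb+/+ and Rb-/- libraries lay above it. The highest ChIP library was 1.43 times the lowest (1.403 to 1.45).

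MMSAT4 was highest in Rb+/+, followed by Rb-/-. Its counts were 2205 in Rb+/+, 1788 in Rb-/-, 1275 in RbΔL/ΔL, 1214 in RbΔL/+ and 1542 in the input. Levels were, in CPM, 123.2 in Rb+/+ (118.1 to 128.5), 107.0 in Rb-/- (102.1 to 112.1), 79.4 in RbΔL/ΔL (75.1 to 83.9), 88.4 in RbΔL/+ (83.5 to 93.5) and 89.8 in the input (85.3 to 94.3). Neighbours in the order differed by factors of 1.15 (Rb+/+ over Rb-/-, 1.08 to 1.23), 1.21 (Rb-/- over RbΔL/+, 1.13 to 1.30) and 1.11 (RbΔL/+ over RbΔL/ΔL, 1.03 to 1.205), each more than counting error, and RbΔL/+ overlapped the input. With the median class ratio at 1, RbΔL/ΔL was within counting error of RbΔL/+ here as well, at 1.02 times (0.942 to 1.10). On that scale RbΔL/+ was at 0.881 times the input (0.817 to 0.949).

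MurSAT1 was the least abundant of the 5 and varied the most among them. It had 167 counts in Rb+/+, 120 in Rb-/-, 203 in RbΔL/ΔL, 316 in RbΔL/+ and 183 in the input. That is 9.33 CPM in Rb+/+ (7.97 to 10.9), 7.18 in Rb-/- (5.96 to 8.59), 12.6 in RbΔL/ΔL (10.96 to 14.5), 23.0 in RbΔL/+ (20.5 to 25.7) and 10.7 in the input (9.16 to 12.3). RbΔL/+ stood apart from the other 4 libraries, which lay within 7.18 and 12.6. It was 1.82 times the next library, RbΔL/ΔL (1.53 to 2.17), and 3.20 times the lowest, Rb-/- (2.60 to 3.95).

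ZP3AR was lowest in Rb+/+ and highest in RbΔL/+. The counts were 252 in Rb+/+, 338 in Rb-/-, 483 in RbΔL/ΔL, 513 in RbΔL/+ and 475 in the input. Its levels in CPM were 14.1 in Rb+/+ (12.4 to 15.9), 20.2 in Rb-/- (18.1 to 22.5), 30.1 in RbΔL/ΔL (27.5 to 32.9), 37.4 in RbΔL/+ (34.2 to 40.7) and 27.6 in the input (25.2 to 30.2). RbΔL/ΔL and the input overlapped, and Rb+/+ and Rb-/- lay below both. The step from Rb+/+ to Rb-/- was a factor of 1.44 (1.22 to 1.69), that from Rb-/- to RbΔL/ΔL 1.49 (1.29 to 1.71) and that from RbΔL/ΔL to RbΔL/+ 1.24 (1.10 to 1.41).

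IMPB_01 had the narrowest relative range of counts, with 2512 in Rb+/+, 2022 in Rb-/-, 2445 in RbΔL/ΔL, 2550 in RbΔL/+ and 2352 in the input. It stood, in CPM, at 140.4 in Rb+/+ (134.9 to 146.0), 121.1 in Rb-/- (115.8 to 126.4), 152.2 in RbΔL/ΔL (146.3 to 158.4), 185.7 in RbΔL/+ (178.6 to 193.0) and 136.9 in the input (131.4 to 142.5). Rb+/+ and the input overlapped, RbΔL/+ was the highest and Rb-/- the lowest, with a factor of 1.53 (1.45 to 1.63) between those. RbΔL/+ had the lowest total of the 5 libraries and yet the largest number of MurSAT1, ZP3AR and IMPB_01 counts, so for these 3 families it was the highest ChIP library before any division by the total as well.

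**Figure D1:**
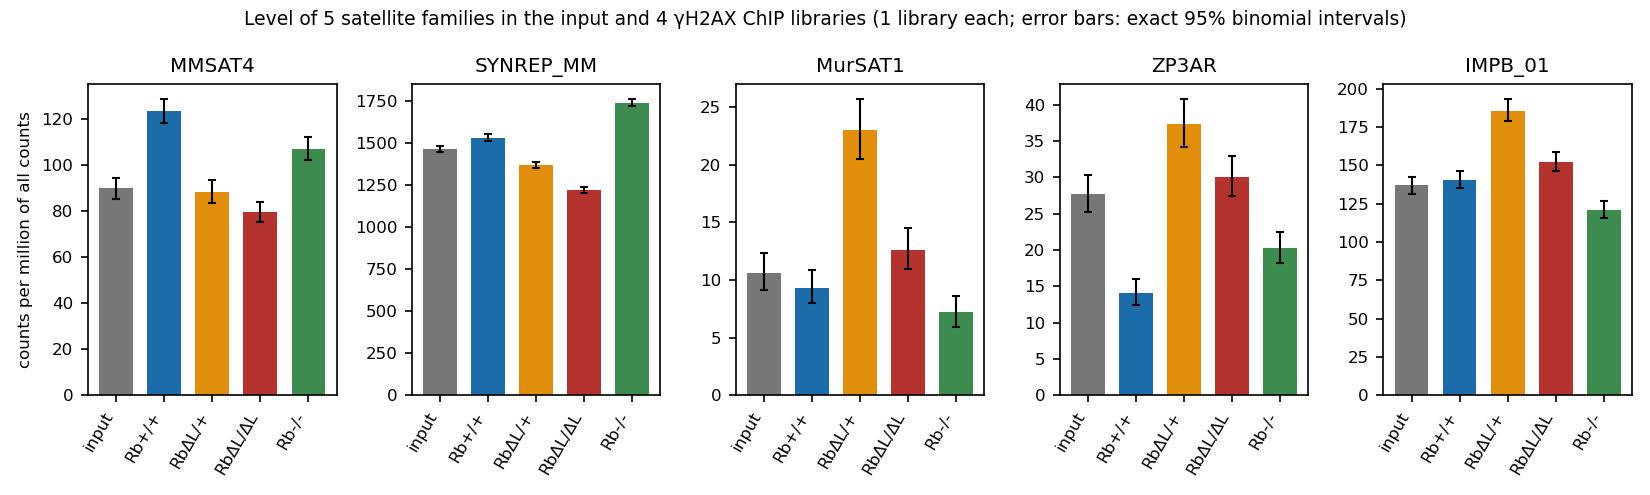
Level in CPM (vertical axis, from 0, with its own scale in each panel) of the 5 families in the input and the 4 γH2AX libraries; bars are single libraries and error bars are exact 95% binomial intervals. On this scale, though not with the median class ratio at 1, MMSAT4 and SYNREP_MM are lowest in RbΔL/ΔL, whereas MurSAT1, ZP3AR and IMPB_01 are highest in RbΔL/+.

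The comparison with the input asks whether γH2AX chromatin held more or less of a family than the input DNA. No γH2AX library had all 5 families on one side of the input. In Rb+/+, MMSAT4 was at 1.37 times the input (1.29 to 1.46) and ZP3AR at 0.509 (0.437 to 0.593), SYNREP_MM was at 1.05 (1.03 to 1.06), and the intervals of MurSAT1 (0.876) and IMPB_01 (1.03) included 1. Without the unique genome in the total, IMPB_01 in Rb+/+ was at 1.14 (1.07 to 1.201). In RbΔL/+, MurSAT1 stood at 2.16 (1.80 to 2.59), ZP3AR at 1.35 (1.19 to 1.53) and IMPB_01 at 1.36 (1.28 to 1.43), with SYNREP_MM below the input at 0.935 (0.917 to 0.953). RbΔL/ΔL was at 0.831 (0.816 to 0.847) for SYNREP_MM, 0.884 (0.821 to 0.953) for MMSAT4 and 1.11 (1.05 to 1.18) for IMPB_01. Rb-/- combined 2 families above the input, SYNREP_MM and MMSAT4 (both 1.19), with 3 below it, MurSAT1 (0.674), ZP3AR (0.732) and IMPB_01 (0.884).

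For scale, the same ratios were taken for 18 features, the 11 repeat classes other than satellites (the unique genome among them) and the 7 satellite families with more than 3 counts. A ratio to input of at least 1.2-fold in either direction was reached by 2 of the 5 families in Rb+/+, where 22.2% of the 18 features reached it, by 2 in Rb-/- (38.9% of features), 1 in RbΔL/ΔL (16.7%) and 3 in RbΔL/+ (33.3%). The median ratio of the 5 families was 1.03 for Rb+/+, beside 0.972 over the 18 features. For Rb-/- these medians were 0.884 and 1.01, for RbΔL/ΔL 1.09 and 0.986, and for RbΔL/+ 1.35 and 1.12. These 5 are themselves among the 18. In RbΔL/+ the median over features was thus also above 1, by 0.16 on the log2 scale, and set to that median its MurSAT1, ZP3AR and IMPB_01 ratios were 1.93, 1.21 and 1.21.

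Leaving out GSAT_MM kept the picture for Rb+/+ and RbΔL/+ and changed it for the other 2 genotypes. The share of SYNREP_MM in the satellite counts without GSAT_MM was 67.1% in Rb+/+ (66.7 to 67.6), 67.1% in Rb-/- (66.7 to 67.6), 61.0% in RbΔL/ΔL (60.4 to 61.5), 61.8% in RbΔL/+ (61.2 to 62.3) and 64.9% in the input (64.4 to 65.4). On this scale Rb+/+ and Rb-/- differed by less than counting error for SYNREP_MM, with a ratio of 1.00 (0.991 to 1.01). SYNREP_MM is itself most of this denominator, so this ratio is held near 1 and does not show that the levels were alike. MMSAT4 took 5.40% in Rb+/+, 4.14% in Rb-/-, 3.98% in RbΔL/ΔL, 3.99% in RbΔL/+ and 3.98% in the input, and the Rb+/+ interval (5.19 to 5.63) was the one apart from those of the other 4 libraries. The excess of MMSAT4 over the input in Rb-/- and its deficit in RbΔL/ΔL, seen in shares of all counts, came to 1.04 (0.972 to 1.11) and 0.999 (0.929 to 1.07).

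MurSAT1, ZP3AR and IMPB_01 still differed between genotypes without GSAT_MM. MurSAT1 was 0.409% of those satellite counts in Rb+/+, 0.278% in Rb-/-, 0.633% in RbΔL/ΔL, 1.04% in RbΔL/+ and 0.472% in the input. ZP3AR was 0.617%, 0.782%, 1.51%, 1.69% and 1.23% in the same order, and IMPB_01 was 6.16%, 4.68%, 7.63%, 8.39% and 6.07%. All 3 now lay above the input in RbΔL/ΔL as well, MurSAT1 at 1.34 times (1.10 to 1.64), ZP3AR at 1.23 (1.08 to 1.39) and IMPB_01 at 1.26 (1.19 to 1.33). In Rb-/- they lay further below it than in shares of all counts, at 0.588, 0.638 and 0.770. Both shifts follow from the denominator and were the same factor for every family of a library. SYNREP_MM and SATMIN together fill most of this denominator, and SATMIN took 20.3% of it in Rb+/+ and 25.3% in RbΔL/ΔL, its lowest and highest values. Without SATMIN as well, the SYNREP_MM ratio of Rb+/+ to the input, 1.03 (1.02 to 1.04), became 0.995 (0.988 to 1.00). That of Rb-/- to Rb+/+ moved from 1.00 to 1.04 (1.03 to 1.04). That of RbΔL/ΔL to RbΔL/+ turned from 0.987 (0.974 to 0.999) to 1.02 (1.01 to 1.02). SYNREP_MM makes up most of either denominator, so these ratios are held near 1.

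**Figure D2:**
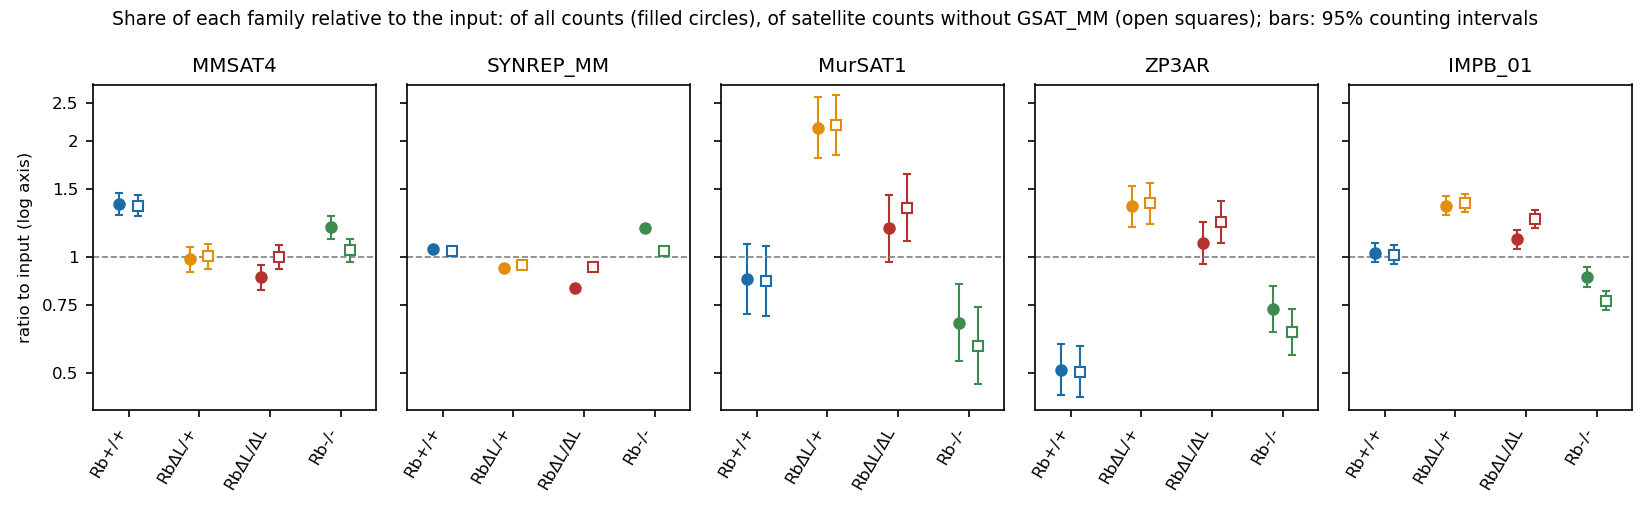
Ratio to the input (vertical log axis, dashed line at 1) of each family in the 4 γH2AX libraries, as share of all counts (filled circles) and of satellite counts without GSAT_MM (open squares), with 95% counting intervals. MurSAT1 in RbΔL/+ is at 2.16 and 2.20 and ZP3AR in Rb+/+ at 0.509 and 0.504, while MMSAT4 in Rb-/- moves from 1.19 to 1.04.

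Between genotypes, RbΔL/+ had more MurSAT1, ZP3AR and IMPB_01 than Rb+/+ and less MMSAT4 and SYNREP_MM. ZP3AR was 2.65 times (2.28 to 3.08) and MurSAT1 2.47 times (2.04 to 2.97) the Rb+/+ level, IMPB_01 1.32 times (1.25 to 1.398), SYNREP_MM 0.894 times (0.877 to 0.911) and MMSAT4 0.718 times (0.669 to 0.770). A difference of at least 1.2-fold either way was seen for 4 of the 5 families, and for 38.9% of the 18 features. The median over the features was 1.12. Scaled to a median class ratio of 1, IMPB_01, at 1.15 (1.09 to 1.21), no longer passed 1.2-fold. SYNREP_MM, at 0.777 (0.762 to 0.791), then did, and MMSAT4, MurSAT1 and ZP3AR still passed it.

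RbΔL/ΔL, set against the same Rb+/+ library, had more ZP3AR, MurSAT1 and IMPB_01 and less SYNREP_MM and MMSAT4. ZP3AR was at 2.14 (1.83 to 2.49), MurSAT1 at 1.35 (1.10 to 1.66), IMPB_01 at 1.08 (1.03 to 1.15), SYNREP_MM at 0.795 (0.780 to 0.810) and MMSAT4 at 0.644 (0.601 to 0.690). Of the 5 families 4 passed 1.2-fold, and of the features 33.3%.

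Rb-/- had more ZP3AR and SYNREP_MM than Rb+/+ and less of the other 3 families. For SYNREP_MM the ratio was 1.00 without GSAT_MM, where the denominator is mostly SYNREP_MM itself. It was 1.05 (1.03 to 1.07) without the unique genome and 1.10 (1.08 to 1.11) with the median class ratio at 1. Relative to Rb+/+, whose library serves all 3 mutants, ZP3AR was at 1.44 (1.22 to 1.69) and SYNREP_MM at 1.14 (1.12 to 1.15), while MMSAT4 was at 0.869 (0.816 to 0.925), IMPB_01 at 0.862 (0.813 to 0.914) and MurSAT1 at 0.770 (0.609 to 0.973). On both scales Rb+/+ was the lowest of the 4 γH2AX libraries for ZP3AR and the highest for MMSAT4. A difference of 1.2-fold was passed by 2 of the 5 families and 38.9% of the features.

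Between the ΔL genotypes, the library with 1 ΔL allele had more of all 5 families than the library with 2 in shares of all counts. For MMSAT4, SYNREP_MM and ZP3AR the difference was within counting error under another scaling. RbΔL/ΔL stood at 0.549 times RbΔL/+ for MurSAT1 (0.460 to 0.655), 0.805 for ZP3AR (0.711 to 0.911), 0.820 for IMPB_01 (0.776 to 0.867), 0.889 for SYNREP_MM (0.872 to 0.907) and 0.898 for MMSAT4 (0.830 to 0.971). Of these, 3 passed 1.2-fold, as did 33.3% of the 18 features, and the median over the features was 0.879. Scaled to a median class ratio of 1, the intervals of MMSAT4 (1.02, 0.942 to 1.10), SYNREP_MM (1.01, 0.989 to 1.03) and ZP3AR (0.913, 0.806 to 1.03) included 1. Without GSAT_MM those of MMSAT4 (0.996, 0.922 to 1.08) and ZP3AR (0.893, 0.789 to 1.01) did. MurSAT1 remained lower in RbΔL/ΔL on each of these scales, at 0.609 (0.511 to 0.726) without GSAT_MM.

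Rb-/- had less MurSAT1, ZP3AR and IMPB_01 than either ΔL library and more SYNREP_MM and MMSAT4. Against RbΔL/+, Rb-/- had 0.312 times the MurSAT1 (0.253 to 0.385), 0.542 times the ZP3AR (0.472 to 0.621) and 0.652 times the IMPB_01 (0.615 to 0.691), but 1.27 times the SYNREP_MM (1.25 to 1.29) and 1.21 times the MMSAT4 (1.13 to 1.30). Against RbΔL/ΔL the factors were 0.568, 0.673, 0.795, 1.43 and 1.35 in the same order. All 5 families passed 1.2-fold in both comparisons, where 50% and 44.4% of the 18 features did. Without GSAT_MM the MMSAT4 ratios, 1.04 for each, had intervals that included 1.

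**Figure D3:**
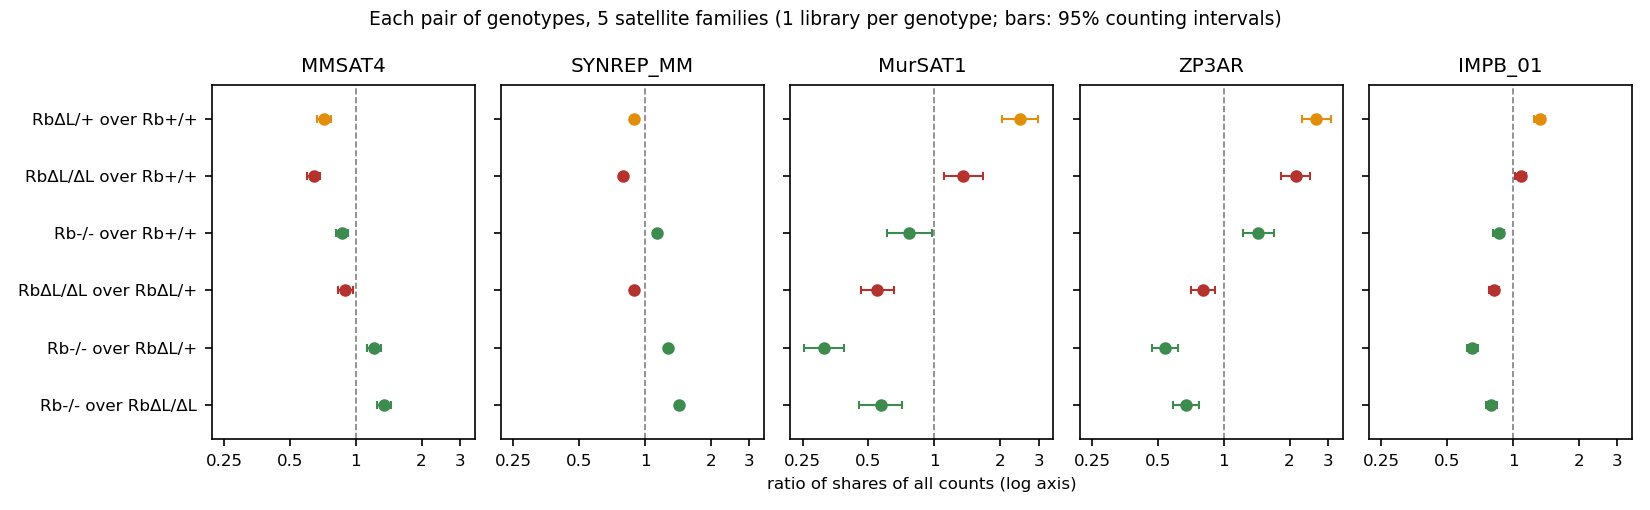
Ratio of shares of all counts (horizontal log axis, dashed line at 1) for the 6 pairs of genotypes, with 95% counting intervals; colour marks the first library of each pair. None of the 30 intervals includes 1 on this scale (93.5% of the 108 ratios over the 18 features exclude it), and the lowest ratio is that of MurSAT1 in Rb-/- over RbΔL/+, 0.312.

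Put side by side, both libraries with a ΔL allele lay below both libraries without one for MMSAT4 and SYNREP_MM, and above both for MurSAT1, ZP3AR and IMPB_01. The same separation was not particular to these families. It was met, with all 4 intervals excluding 1, by 8 of the 18 features (44.4%), GSAT_MM, LINEs and tandem repeats being the other 3. This grouping of the ratios was chosen after the values were seen. The 4 ratios of a ΔL library to one without ran from 0.644 to 0.826 for MMSAT4, 0.7002 to 0.894 for SYNREP_MM, 1.35 to 3.20 for MurSAT1, 1.49 to 2.65 for ZP3AR and 1.08 to 1.53 for IMPB_01. In shares of all counts the intervals of all 20 excluded 1, as did 94.4% of the 72 such ratios over the 18 features, so at this depth the count says little about these families. Intervals excluded 1 for 18 of 20 without GSAT_MM (both exceptions are MMSAT4 against Rb-/-), 20 with the median class at 1 and 19 when the unique genome was left out of the total (IMPB_01 excepted in 1 pair). The 5 families kept their side of 1 in each of the 4 scalings. All scalings divide the same counts and are not independent support, and the share over the 18 features was taken only for shares of all counts. The families share the same 4 libraries and totals and are not independent of each other, and no replicate of either ΔL genotype shows how far cultures of 1 genotype differ.

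Ratios between families within a library need no total at all. The input had 16.3 SYNREP_MM counts for each MMSAT4 count (15.5 to 17.2), and RbΔL/+ (15.5), RbΔL/ΔL (15.3) and Rb-/- (16.2) were within counting error of it. Rb+/+ had 12.4 (11.9 to 13.0), or 0.762 times the input's ratio (0.712 to 0.815), and was the one library of the 4 whose interval excluded the input value. For IMPB_01 and ZP3AR, too, Rb+/+ was furthest from the input. IMPB_01 had 9.97 counts for each ZP3AR count there (8.76 to 11.3), against 4.95 in the input (4.49 to 5.46). The ΔL libraries, at 4.97 with 1 allele and 5.06 with 2, were within counting error of the input, and Rb-/- was at 5.98, or 1.21 times its ratio (1.04 to 1.41).

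IMPB_01 and ZP3AR, each set against MMSAT4, separated the ΔL libraries from the other genotypes. This restates the levels above, where MMSAT4 was lower and IMPB_01 and ZP3AR higher in both ΔL libraries. Any ratio of a family lower there to a family higher there must separate them. IMPB_01 counts per MMSAT4 count were 1.14 in Rb+/+ (1.08 to 1.21), 1.13 in Rb-/- (1.06 to 1.21), 1.92 in RbΔL/ΔL (1.79 to 2.05), 2.10 in RbΔL/+ (1.96 to 2.25) and 1.53 in the input (1.43 to 1.63). Rb+/+ and Rb-/- had almost the same value, below the input, and the ΔL libraries lay above it. MMSAT4 counts per ZP3AR count began at 2.37 in RbΔL/+ (2.13 to 2.62) and 2.64 in RbΔL/ΔL (2.38 to 2.93) and went through 3.25 in the input (2.93 to 3.598), to 5.29 in Rb-/- (4.71 to 5.94) and 8.75 in Rb+/+ (7.68 to 9.97). MurSAT1 did not keep step with ZP3AR, since ZP3AR had 2.60 counts per MurSAT1 count in the input (2.19 to 3.08) and 2.82 and 2.38 in Rb-/- and RbΔL/ΔL, but 1.51 in Rb+/+ (1.24 to 1.83) and 1.62 in RbΔL/+ (1.41 to 1.87).

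**Figure D4:**
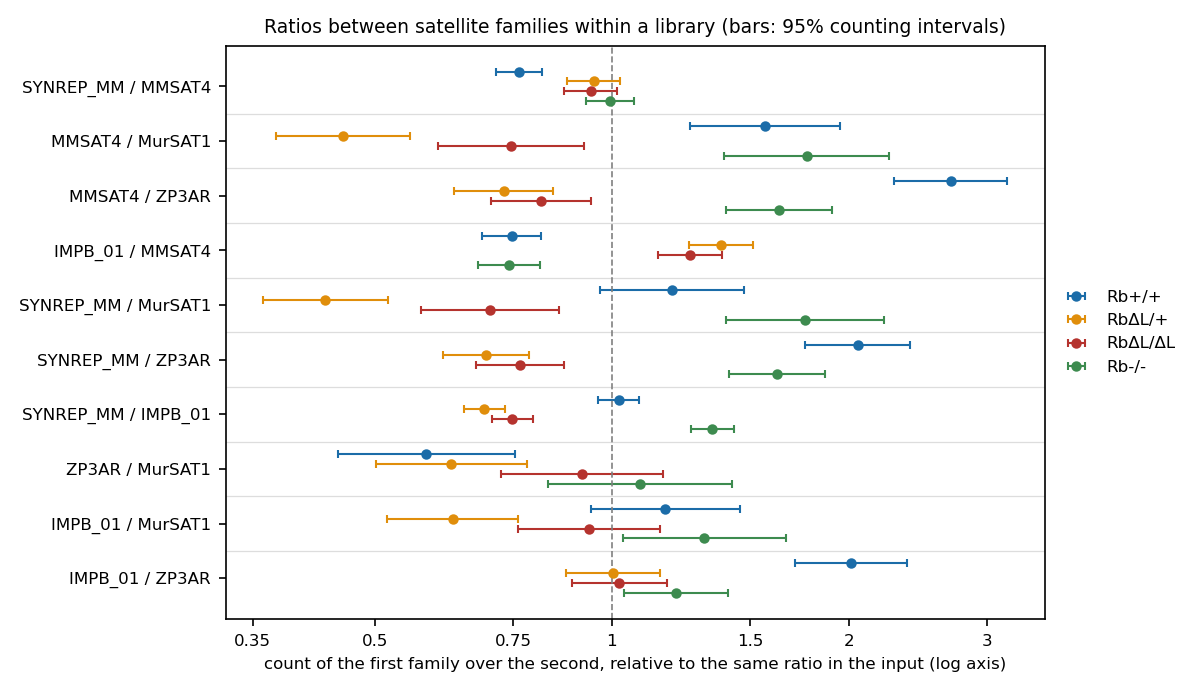
Count of one family over that of another within a library, relative to the same ratio in the input (horizontal log axis, dashed line at 1), for the 10 pairs of families and 4 γH2AX libraries, with 95% counting intervals. For SYNREP_MM over MMSAT4 only Rb+/+ lies off 1, at 0.762, and for IMPB_01 over MMSAT4 the ΔL libraries (1.38 and 1.26) lie opposite Rb+/+ (0.747) and Rb-/- (0.741).

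Taken as one sum, the 5 families gave, in CPM, 1818 in Rb+/+ (1798 to 1838), 1993 in Rb-/- (1972 to 2015), 1491 in RbΔL/ΔL (1472 to 1510), 1703 in RbΔL/+ (1681 to 1725) and 1728 in the input (1709 to 1748). SYNREP_MM supplied 80.4% to 87.2% of this sum, and the order of the libraries in the sum was that of SYNREP_MM, not that of MurSAT1, ZP3AR or IMPB_01. Rb-/- exceeded Rb+/+ by a factor of 1.10 (1.08 to 1.11) in the sum, yet without GSAT_MM the factor was 0.966 (0.959 to 0.973). That denominator is almost wholly the sum itself plus SATMIN, so the factor is held near 1 and moves opposite to the share of SATMIN. In shares of all counts SATMIN in Rb-/- was 1.29 times Rb+/+ (1.25 to 1.32), more than the sum. The spread over the 4 γH2AX libraries, highest over lowest, was 3.20 for MurSAT1, 2.65 for ZP3AR, 1.55 for MMSAT4, 1.53 for IMPB_01 and 1.43 for SYNREP_MM. All 5 were wider than SATMIN (1.29) and GSAT_MM (1.201), and ranked 2, 4, 6, 7 and 8 among the 18 features. Families with few counts spread more by counting error alone.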

How the data were processed

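For each of 5 libraries the authors deposited whole-number counts for 12 repeat classes (tandem repeats and the unique genome included) and for 13 satellite families, which add up to the satellite class. Bowtie 1.0, MACS 1.4.2 and mm9 are named, without role, per the submitters' processing notes. How reads fitting several repeat copies were counted, and whether duplicates were removed, is not given in the sources used here; either could change family levels. Counts were divided by the library total or by satellite counts without GSAT_MM. Shares have exact (Clopper-Pearson) 95% intervals, and ratios have 95% counting intervals on the log ratio. Such intervals cover counting error only, since each group has 1 library. Reads without molecular identifiers can repeat a molecule, which would make the intervals too narrow even for counting error. All 5 families are named in all libraries. Families with at most 3 counts in every library have no ratio. The families, scales and the 1.2-fold limit were chosen with earlier results of these data known. Interval code was tested on simulated data. Alternatives were other denominators, scaling to the median class and an exact interval. Peak lists were not used. Python 3.11.15, numpy 2.4.6, scipy 1.17.1 and matplotlib 3.10.9 were used.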

Additional observations from a re-analysis of the deposited data

Results flagged for a closer look

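All 5 families met one condition, a ratio to input below 1 in some genotype and above 1 in some other, each with an interval that excluded 1. So did 12 of the 18 features (66.7%), SATMIN among them, so the condition does not set these families apart. The difference between genotypes was not tested, since each has 1 library. In shares of all counts, the extremes for MMSAT4 were 1.37 (Rb+/+) and 0.884 (RbΔL/ΔL), and for SYNREP_MM 1.19 (Rb-/-) and 0.831 (RbΔL/ΔL). RbΔL/+ was the upper extreme for MurSAT1 (2.16, with Rb-/- at 0.674), ZP3AR (1.35, with Rb+/+ at 0.509) and IMPB_01 (1.36, with Rb-/- at 0.884). In shares of satellite counts without GSAT_MM the condition held for 4 of the 5 families. SATMIN, which fills most of the rest of that denominator, met it as well, at 0.869 in Rb+/+ (0.847 to 0.893) and 1.08 in RbΔL/ΔL (1.06 to 1.11). As SATMIN and the 5 families are together almost the whole denominator, SATMIN moves opposite to their sum and gives no separate background. Whether the condition is particular to the 5 families on this scale is therefore not known. The extremes of the 4 were 1.03 (Rb-/-) and 0.939 (RbΔL/ΔL) for SYNREP_MM, 2.20 (RbΔL/+) and 0.588 (Rb-/-) for MurSAT1, 1.38 (RbΔL/+) and 0.504 (Rb+/+) for ZP3AR, and 1.38 (RbΔL/+) and 0.770 (Rb-/-) for IMPB_01. MMSAT4 was the exception among the 5, with no library below the input beyond counting error.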

How the results depend on the processing

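For the sum of the 5 families, leaving the unique genome out of the total gave ratios to input of 1.16 (Rb+/+), 1.18 (Rb-/-), 1.01 (RbΔL/+) and 0.9305 (RbΔL/ΔL), and ratios to Rb+/+ of 1.01 (Rb-/-), 0.868 (RbΔL/+) and 0.799 (RbΔL/ΔL). Shares of satellite counts without GSAT_MM gave 1.00 (Rb-/-), 1.00 (RbΔL/+) and 0.974 (RbΔL/ΔL) relative to input, and 0.966 (Rb-/-), 0.965 (RbΔL/+) and 0.937 (RbΔL/ΔL) relative to Rb+/+, where Rb-/- is on the other side of 1 from the reported 1.10. As that denominator is almost wholly the 5 families plus SATMIN, these ratios are held near 1 and move opposite to the share of SATMIN. Scaling each library to a median class ratio of 1 put the sum at 1.08 (Rb+/+) and 0.881 (RbΔL/+) relative to input, and at 1.06 (Rb-/-) and 0.814 (RbΔL/+) relative to Rb+/+. Among the single families, that scaling put RbΔL/ΔL over RbΔL/+ at 1.02 for MMSAT4 (0.942 to 1.10) and 1.01 for SYNREP_MM (0.989 to 1.03), both with intervals including 1. Leaving out SATMIN beside GSAT_MM put SYNREP_MM at 0.995 in Rb+/+ over input, with an interval including 1, and turned it to 1.02 in RbΔL/ΔL over RbΔL/+. SYNREP_MM is most of that denominator, which holds its ratios near 1. An interval came to include 1, or ceased to, for 6 of 50 single-family ratios without the unique genome, 9 of 50 without GSAT_MM, 4 of 50 with the median scaling and 2 of 35 (to input and to Rb+/+) without SATMIN. IMPB_01 in Rb+/+ over input (1.14, no unique genome), MMSAT4 in RbΔL/+ over input (0.881, median scaling) and SYNREP_MM in Rb-/- over Rb+/+ (1.04, no SATMIN) thereby left 1. Without the unique genome, MurSAT1 (1.28, 1.05 to 1.56) and ZP3AR (1.17, 1.03 to 1.33) in RbΔL/ΔL over input also left 1. There MMSAT4 in RbΔL/ΔL came to include 1 over input (0.954, 0.886 to 1.03) and over RbΔL/+ (0.944, 0.872 to 1.02). IMPB_01 in RbΔL/ΔL over Rb+/+ (1.06, 0.999 to 1.12) did so as well. Exact conditional intervals changed the side of 1 for 0 of 20 ratios to input. No paired analysis was possible because each genotype has 1 library. MurSAT1, with 120 to 316 counts, has the widest intervals. For a given pair of libraries, a change of denominator or scaling multiplies the ratios of all families by the same factor. Why the denominators differ between libraries was not tested.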
